A study of Mus musculus with 12 samples.

Results

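The insulin-like growth factor (IGF) binding proteins were followed here together with one receptor of their ligands. The 8 genes, *Igfbp1* to *Igfbp7* and *Igf1r*, were chosen by name and not by a threshold on their values. All 8 were listed in both count tables, among 20093 genes that the tables shared, and all 8 passed the filter on low counts in each comparison. Bulk RNA-seq was done on livers of 12 male C57BL/6N mice with floxed alleles of *Elavl1*, the gene of the RNA-binding protein HuR, in 4 groups of 3 with 1 library per mouse. Per the labels, every animal was HuR flox/flox and 4 to 6 months old when it received an adeno-associated virus. The livers labelled HuRHep-/- came from mice given AAV8-Tbg-Cre, in which the hepatocyte promoter Tbg drives Cre, and the livers labelled WT from mice given AAV8-Tbg-null, so WT here means floxed mice without Cre. The methods of the study describe a different model, a cross with albumin-Cre mice and animals of 8 to 10 weeks, and the counts do not show which account holds. One pair of groups ate normal chow, for a time not given in the sources used here. The other pair ate feed rich in fat, cholesterol and fructose (HFCF, with 40 kcal% fat, 2% cholesterol and 20 kcal% fructose) for 16 weeks. Chow and HFCF libraries were deposited in separate tables, so that diet, table and age at collection cannot be told apart.

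IGF binding proteins are secreted carriers that hold IGF1 and IGF2 in the circulation and in tissue and limit access of the ligands to the IGF1 receptor. Proteases and phosphorylation free the ligand, and several of the carriers also act on cells without it. In liver, hepatocytes are known as the main source of circulating IGF1 and of *Igfbp1*, *Igfbp2* and *Igfbp4*, while *Igfbp3*, *Igfbp5*, *Igfbp6* and *Igfbp7* are known from endothelial, stellate, mesenchymal and other non-parenchymal cells. *Igf1r* is known to be low in adult hepatocytes.

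HuR transcript was higher, not lower, in the livers labelled HuRHep-/-. *Elavl1* (ENSMUSG00000040028) had 1052, 993 and 1058 normalized counts in chow WT livers and 1453, 1332 and 1320 in chow livers labelled HuRHep-/-. On HFCF it had 806, 820 and 913 against 1087, 1081 and 1140. A normalized count is a read count scaled for library size and composition with TMM factors (a trimmed mean of M-values). Over both diets the log2 fold change of *Elavl1* was 0.39 (limma, adjusted p = 0.0004 by Benjamini-Hochberg), and it held in 12 of 12 fits that left out 1 liver. Within a single diet it was 0.40 in chow (adjusted p = 0.0254) and 0.38 on HFCF (adjusted p = 0.0326), and there leaving out 1 liver gave an adjusted p of 0.0402 to 0.104 and of 0.029 to 0.12. The counts cover the whole gene, not only the deleted part, and of its exons 204 bases lie opposite *Ccl25*. Below, groups carry the names of their labels, and an exchange of the labels, which was not tested, would turn each direction of the genotype contrast and swap the diet contrasts of WT and HuRHep-/-.

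Reads counted on genes ran from 30071731 to 35949203 per library. All 10 hepatocyte markers were present in every group, with summed normalized counts of 3380552 to 4144737 in chow livers labelled WT, 2770986 to 3094034 in chow livers labelled HuRHep-/-, 2487271 to 2719489 on HFCF in WT and 2190114 to 2350233 on HFCF in HuRHep-/-. The defining acinar markers *Cpa1*, *Prss2* and *Pnlip* were not among the genes of both tables.

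*Igfbp4* and *Igfbp2* made up most of the binding protein transcripts. Per length, in TPM (counts divided by exon length and scaled to one sum over the 20028 genes with a length), *Igfbp4* stood at 671 ± 39.7 (SD, n = 3) in chow WT, 830 ± 56.2 in chow HuRHep-/-, 673 ± 73.2 in HFCF WT and 733 ± 82.3 in HFCF HuRHep-/-. *Igfbp2* followed at 455 ± 92.5, 477 ± 80.9, 272 ± 31.1 and 396 ± 131 TPM in the same order of groups. *Igfbp7* and *Igfbp1* came next and lay close together in chow, at 75.8 ± 12.6 and 65.0 ± 16.5 TPM in WT and at 81.0 ± 18.5 and 83.4 ± 23.2 TPM in HuRHep-/-, values that overlapped. On HFCF *Igfbp7* reached 125 ± 39.4 TPM in WT and 202 ± 12.8 TPM in HuRHep-/-, beside 86.8 ± 39.0 and 107 ± 64.9 TPM for *Igfbp1*. *Igfbp3* came after these 4 in every group, with means of 6.87 to 22.9 TPM. *Igfbp5* and *Igfbp6* exchanged places between the diets, with means of 1.93 to 11.9 TPM and 1.99 to 9.62 TPM that overlapped in each group. *Igf1r* was the lowest of the 8 throughout, at 0.246 to 0.506 TPM. These TPM carry no TMM factors, which ran from 0.8763 to 0.9856 in chow and from 0.9703 to 1.154 on HFCF. TPM and normalized counts can therefore differ between diets. *Igfbp4* in WT stood at 671 and 673 TPM in chow and HFCF, beside mean normalized counts of 57784 and 49297.

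As a share of the summed TPM of the 7 binding proteins, *Igfbp4* held 52.5% ± 4.89 (SD, n = 3) in chow WT, 56.1% ± 2.63 in chow HuRHep-/-, 57.0% ± 3.41 in HFCF WT and 49.9% ± 3.71 in HFCF HuRHep-/-. The share of *Igfbp2* was 35.4% ± 5.49 and 32.1% ± 2.85 in chow and 23.0% ± 1.80 and 26.3% ± 3.42 on HFCF. *Igfbp7* took 5.94% ± 1.12 and 5.42% ± 0.765 in chow, and 10.7% ± 3.56 and 13.9% ± 2.09 on HFCF. With the longest transcript in place of all exons, *Igfbp2* held 40.7% in chow WT, 37.1% in chow HuRHep-/-, 27.4% in HFCF WT and 31.2% in HFCF HuRHep-/-, and the mean of *Igfbp4* lay above that of *Igfbp2* in all 4 groups. In chow WT the ranges over livers then overlapped, with up to 47.3% for *Igfbp2* and down to 43.5% for *Igfbp4*. These shares are levels, given without a test.

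**Figure D1:**
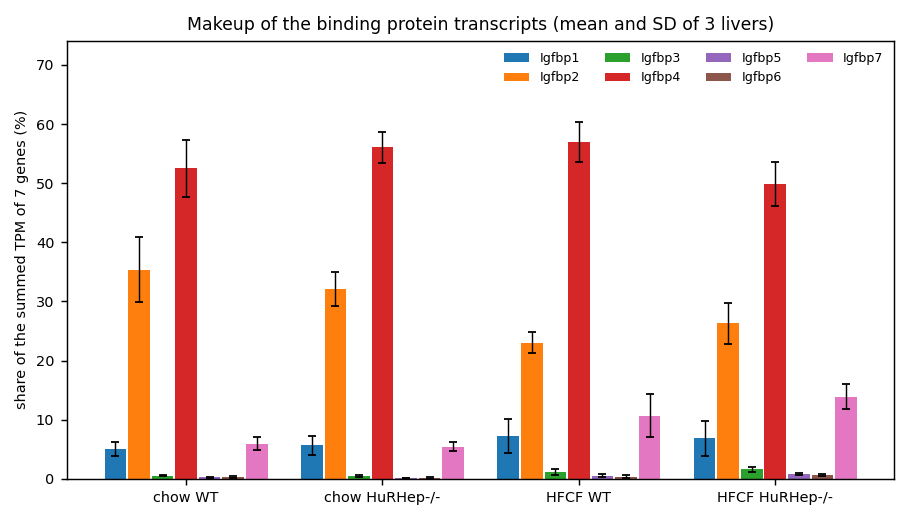
Share of each binding protein (bars, mean of 3 livers, with SD) in the summed TPM of the 7 genes, by group, in percent. *Igfbp4* is the tallest bar in all 4 groups and *Igfbp2* the next, and the bar of *Igfbp2* is lower in both HFCF groups than in both chow groups, at 23.0% and 26.3% against 35.4% and 32.1%.

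The diet contrast asked which of these genes differed between HFCF and chow livers that shared a label. In livers labelled HuRHep-/-, 5 members rose (*Igfbp3*, *Igfbp5*, *Igfbp6*, *Igfbp7* and *Igf1r*) and 2 fell (*Igfbp2* and *Igfbp4*). In livers labelled WT only *Igfbp2* passed the test, and it fell. Each gene was tested with limma on log2 CPM over all 12 livers, and rose or fell is written for an adjusted p of at most 0.05 by Benjamini-Hochberg over 14535 genes. By the stricter criteria for a differentially expressed gene (DEG), which also asked for a 1.5-fold difference or more and for no fewer than 10 counts per group, 5 of 8 members were higher in HuRHep-/-, where 13.7% of all genes tested were, and 1 of 8 was lower, where 5.5% were. In WT none was higher, beside 6.04% of all genes, and 1 was lower, beside 3.32%. By the adjusted p alone 18.8% of all genes rose and 20.9% fell in HuRHep-/-, and 11.1% rose and 13.3% fell in WT. The HFCF and chow values of 6 members did not overlap in HuRHep-/-, which held for 55.5% of all genes, and those of 1 member did not in WT, which held for 37.5%. No other scaling moved the median of all genes by more than 0.1 on the log2 scale. Without chow HuRHep-/- replicate 3 the count of DEGs in HuRHep-/- fell from 6 to 3, and without HFCF WT replicate 2 the count in WT rose from 1 to 3.

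**Figure D2:**
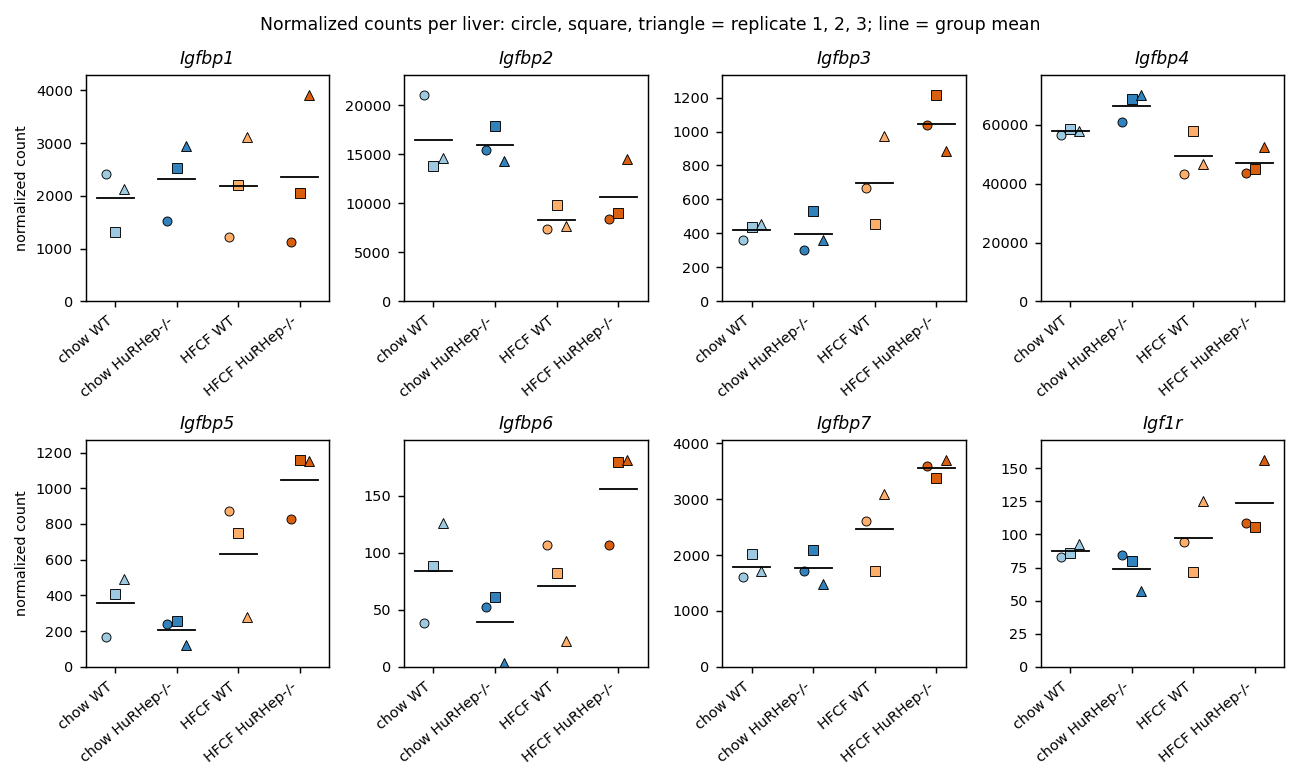
Normalized counts of the 8 genes in each of the 12 livers, on linear axes from 0, with the replicate shown by the marker shape and the group mean by a line. In HFCF HuRHep-/- livers *Igfbp3*, *Igfbp5*, *Igfbp7* and *Igf1r* lie above all chow HuRHep-/- livers, and the lowest *Igfbp6* value, 3.14, belongs to chow HuRHep-/- replicate 3.

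**Figure D3:**
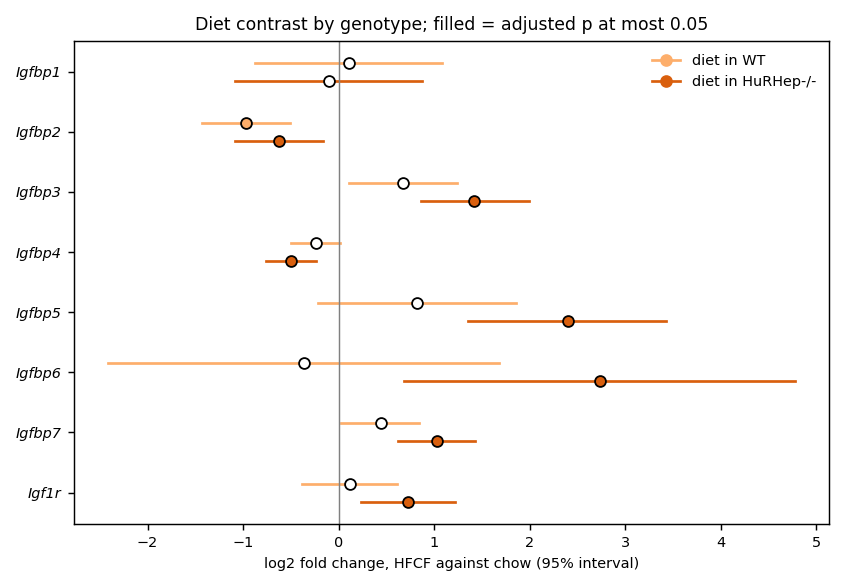
Log2 fold change of HFCF against chow for each gene (points, with 95% intervals as lines), in livers labelled WT (light) and HuRHep-/- (dark), filled where the adjusted p was at most 0.05. All genes but *Igfbp1* are filled in HuRHep-/- and only *Igfbp2* in WT, and the interval of *Igfbp6* is the widest of all.

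*Igfbp2* was the member that fell under both labels. It is a carrier made by hepatocytes, known to be low in obesity and fatty liver. It lies on chromosome 1 of GRCm38 from 72824503 to 72852474 on the plus strand (ENSMUSG00000039323), 5458 bases from *Igfbp5*, and the 2 genes are transcribed toward each other. Chow livers had 21044, 13799 and 14667 normalized counts in WT and 15478, 17929 and 14315 in HuRHep-/-. HFCF livers had 7429, 9873 and 7703 in WT and 8388, 8986 and 14554 in HuRHep-/-. All HFCF WT livers lay below all chow WT livers, while HFCF HuRHep-/- replicate 3 overlapped the chow HuRHep-/- livers. In WT *Igfbp2* fell by 0.97 on the log2 scale (standard error 0.21, 95% interval -1.43 to -0.51, adjusted p = 0.00763), and it passed in 6 of 6 fits without 1 liver. In HuRHep-/- it fell by 0.62 (standard error 0.21, adjusted p = 0.0359), but of 6 fits without 1 liver only that without HFCF HuRHep-/- replicate 3 kept the call, with the adjusted p between 0.00654 and 0.147 over the 6. With all livers it passed under 6 of 8 other settings, but neither with upper-quartile factors (adjusted p = 0.0644) nor with the replicate number as a block (adjusted p = 0.0543).

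The promoter of *Igfbp2* is shown because it is the member that fell under both labels. RefSeq gives *Igfbp2* 2 start sites, and the first window, chr1:72824230-72824529 of GRCm38.p6 on the plus strand, runs from 250 bases before to 50 after the start. Capitals mark the GC box GGGCGG, found in 35.7% of 32851 mouse promoter windows of the same length, and the E-box CACGTG, found in 7.15%, each searched on both strands. The motifs were picked after the values had been seen, and a match is only a description of the letters.
Igfbp2 first promoter: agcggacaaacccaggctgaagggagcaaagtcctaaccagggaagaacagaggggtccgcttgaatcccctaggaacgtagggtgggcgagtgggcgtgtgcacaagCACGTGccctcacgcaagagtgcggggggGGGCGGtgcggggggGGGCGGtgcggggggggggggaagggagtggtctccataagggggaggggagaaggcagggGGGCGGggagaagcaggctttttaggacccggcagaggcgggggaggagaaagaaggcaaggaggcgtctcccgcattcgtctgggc

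*Igfbp4*, the most abundant member, is a carrier that mostly restrains IGF action and is cut by the protease PAPP-A. It lies on chromosome 11 from 99041244 to 99054392 on the plus strand (ENSMUSG00000017493). Its normalized counts were 56693, 58607 and 58052 in chow WT and 60809, 68642 and 70062 in chow HuRHep-/-. On HFCF they were 43368, 57760 and 46761 in WT and 43645, 45124 and 52612 in HuRHep-/-. All HFCF HuRHep-/- livers lay below all chow HuRHep-/- livers, and in WT the highest HFCF liver overlapped the chow group. In HuRHep-/- *Igfbp4* fell by 0.50 on the log2 scale (standard error 0.12, adjusted p = 0.00656), a fall of 1.41-fold that did not reach the fold change asked of a DEG, and it passed in 6 of 6 fits without 1 liver. In WT the log2 fold change was -0.24 (adjusted p = 0.157), and -0.36 without HFCF WT replicate 2 (adjusted p = 0.0244). Of words of 31 bases in its longest transcript, 5.96% also occur in transcripts of other genes, against at most 0.235% for any other member. Hepatocyte markers moved the same way as *Igfbp2* and *Igfbp4*: all 10 had lower estimates on HFCF, with medians of -0.53 in WT and -0.47 in HuRHep-/- beside 0.00 and -0.02 for all genes, and 5 and 6 of them fell. Their part in the fall was not tested, and in bulk tissue fewer cells of a type and less RNA per cell cannot be told apart.

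*Igfbp3* and *Igfbp7* rose in livers labelled HuRHep-/-. *Igfbp3* is the main carrier of IGF1 in blood, where it forms a complex with the acid-labile subunit, and *Igfbp7* binds insulin-like growth factors only weakly and is found in vessel walls and matrix. *Igfbp3* lies on chromosome 11 from 7206086 to 7213923 on the minus strand (ENSMUSG00000020427), and its values in chow were 363, 436 and 457 in WT and 300, 535 and 361 in HuRHep-/-. On HFCF it had 667, 453 and 973 in WT and 1041, 1214 and 886 in HuRHep-/-. All HFCF HuRHep-/- livers thus exceeded all chow HuRHep-/- livers, while HFCF WT replicate 2 sat within the chow WT range. *Igfbp3* rose 2.68-fold in HuRHep-/- (log2 fold change 1.42, standard error 0.26, 95% interval 0.86 to 1.99, adjusted p = 0.00176), and it passed in 6 of 6 fits without 1 liver. In WT its log2 fold change was 0.67 (standard error 0.26, adjusted p = 0.0793). Without HFCF WT replicate 2 it was 0.95 in WT, with an adjusted p of 0.0141.

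*Igfbp7* lies on chromosome 5 from 77349240 to 77408041 on the minus strand (ENSMUSG00000036256), with 85 exon bases opposite *Polr2b*. Chow livers held 1608, 2027 and 1714 normalized counts in WT and 1711, 2094 and 1480 in HuRHep-/-. HFCF livers held 2613, 1722 and 3090 in WT and 3595, 3388 and 3694 in HuRHep-/-. The 3 HFCF HuRHep-/- livers were the highest of all 12, and HFCF WT replicate 2 again fell within the chow range. *Igfbp7* rose 2.04-fold in HuRHep-/- (log2 fold change 1.03, standard error 0.19, adjusted p = 0.00166) and passed in 6 of 6 fits without 1 liver. In WT its log2 fold change was 0.44 (adjusted p = 0.106), and 0.68 without HFCF WT replicate 2 (adjusted p = 0.00623). Its promoter, chr5:77407996-77408295 on the minus strand of GRCm38.p6, is shown as that of a member that rose and that held the most motif matches among those with 1 start site. Capitals mark 4 GC boxes, GGGCGG or its reverse complement.
Igfbp7 promoter: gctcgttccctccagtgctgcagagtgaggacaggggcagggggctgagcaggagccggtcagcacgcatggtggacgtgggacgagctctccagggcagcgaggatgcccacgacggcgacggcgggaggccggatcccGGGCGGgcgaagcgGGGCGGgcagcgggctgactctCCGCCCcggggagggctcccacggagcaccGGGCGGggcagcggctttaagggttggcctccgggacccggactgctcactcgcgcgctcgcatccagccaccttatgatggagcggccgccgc

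Markers of matrix-forming cells moved with *Igfbp3* and *Igfbp7*. All 8 activated fibroblast markers, which include the collagens *Col1a1* and *Col3a1*, rose in HuRHep-/- on HFCF with a median log2 fold change of 2.24, and 2 of 8 rose in WT with a median of 1.14. Their summed normalized counts ran from 1368 to 2061 in chow WT, 1120 to 2210 in chow HuRHep-/-, 1388 to 5455 in HFCF WT and 6236 to 8761 in HFCF HuRHep-/-. HFCF WT replicate 2, the lowest of its group in *Igfbp3* and *Igfbp7*, was the liver with the sum of 1388. Of 10 stellate cell markers 9 rose in HuRHep-/- and 5 in WT, and their sums were 8384 to 9486 in chow WT, 6493 to 9240 in chow HuRHep-/-, 9505 to 15161 in HFCF WT and 13813 to 14967 in HFCF HuRHep-/-. Kupffer cell and macrophage markers summed to 7460 to 9621 in chow WT, 9741 to 14584 in chow HuRHep-/-, 10587 to 17720 in HFCF WT and 16210 to 24769 in HFCF HuRHep-/-, with 6 of 10 risen there and 3 of 10 in WT. Of the 10 markers of sinusoidal endothelium, a known source of *Igfbp7*, 2 rose in HuRHep-/- and none in WT, with sums of 5729 to 7178 and 5261 to 6832 in chow and 5894 to 7053 and 6598 to 6937 on HFCF, in WT and HuRHep-/- respectively. No marker of these 4 lists was at 0 in any group. The part of these cells in the rise of *Igfbp3* and *Igfbp7* was not tested.

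**Figure D4:**
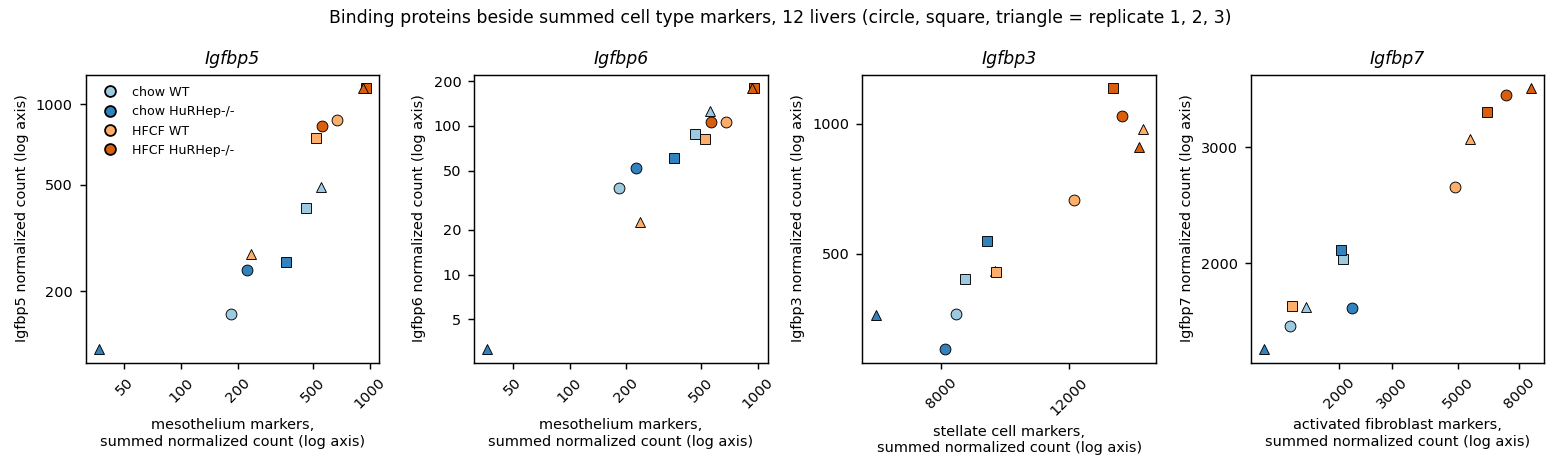
Normalized count of 4 binding proteins in each liver (vertical, log axis) beside the summed normalized count of a marker list (horizontal, log axis), coloured by group and with the replicate given by the marker shape. The chow HuRHep-/- replicate 3 liver lies at the lower left in the *Igfbp5* and *Igfbp6* panels, at 36.6 summed mesothelial counts, and the HFCF HuRHep-/- livers lie at the upper right of the *Igfbp7* panel.

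*Igfbp5* and *Igfbp6* had the largest rises and the widest spread. *Igfbp5* is a carrier that attaches to extracellular matrix and is made by mesenchymal cells, and *Igfbp6* prefers IGF2 to IGF1. *Igfbp5* lies on chromosome 1 from 72857932 to 72874884 on the minus strand (ENSMUSG00000026185) and *Igfbp6* on chromosome 15 from 102144362 to 102149511 on the plus strand (ENSMUSG00000023046). *Igfbp5* had 164, 408 and 492 normalized counts in chow WT and 241, 258 and 121 in chow HuRHep-/-. On HFCF it had 875, 750 and 276 in WT and 830, 1156 and 1155 in HuRHep-/-. Every HFCF HuRHep-/- liver exceeded every chow liver, whereas HFCF WT replicate 3 lay within the chow WT range. *Igfbp5* rose 5.26-fold in HuRHep-/- (log2 fold change 2.40, standard error 0.48, 95% interval 1.36 to 3.43, adjusted p = 0.00275) and passed in 6 of 6 fits without 1 liver. In WT its log2 fold change was 0.82 (standard error 0.48, adjusted p = 0.229).

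*Igfbp6* was close to the detection limit in one liver. Its normalized counts were 38.1, 88.4 and 126 in chow WT and 52.2, 61.1 and 3.14 in chow HuRHep-/-, the last from 3 reads. On HFCF they were 107, 81.9 and 22.6 in WT and 107, 180 and 181 in HuRHep-/-. The HFCF HuRHep-/- livers all lay above the chow HuRHep-/- livers, while the WT groups overlapped. *Igfbp6* rose in HuRHep-/- with a log2 fold change of 2.74 (standard error 0.94, 95% interval 0.69 to 4.78, adjusted p = 0.0361), and in WT the value was -0.36 (adjusted p = 0.808), or -0.85 to 0.32 with 1 liver left out, positive without chow WT replicate 3 or HFCF WT replicate 3. The call depended on single livers. Without chow HuRHep-/- replicate 3 the log2 fold change was 1.42 (adjusted p = 0.106), and without any one of the HFCF HuRHep-/- livers it was 3.00, 2.63 and 2.62 (adjusted p = 0.0592, 0.0914 and 0.0914).

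Markers of mesothelium, the cell layer on the outer surface of the liver, moved with *Igfbp5* and *Igfbp6* from liver to liver. A list of 9 such markers (*Msln*, *Upk3b*, *Upk1b*, *Wt1*, *Gpm6a*, *Lrrn4*, *Muc16*, *Bnc1* and *Rspo1*) was written after the values of both genes had been seen. It holds *Upk3b* and *Msln*, the genes most like *Igfbp6* over the 12 livers, and *Gpm6a*, the gene most like *Igfbp5*. The sum of the list is therefore not separate from those likenesses. The summed normalized counts of the list were 183, 461 and 555 in chow WT and 224, 358 and 36.6 in chow HuRHep-/-. On HFCF they were 674, 520 and 236 in WT and 560, 955 and 924 in HuRHep-/-. Chow HuRHep-/- replicate 3 was the lowest of all 12 livers in this sum, in *Igfbp5* and in *Igfbp6*, and HFCF HuRHep-/- replicates 2 and 3 were the 2 highest in all 3. HFCF WT replicate 3 was the lowest HFCF liver in all 3. None of the 9 markers was at 0 in a whole group. How much of the diet contrast of *Igfbp5* and *Igfbp6* goes with the amount of surface tissue in each sample was not tested.

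*Igf1r*, the receptor that carries the growth signal of IGF1 and IGF2, was low but changed in HuRHep-/-. It lies on chromosome 7 from 67952827 to 68233668 on the plus strand (ENSMUSG00000005533). Its normalized counts were 83.0, 86.1 and 92.6 in chow WT and 84.7, 80.0 and 57.6 in chow HuRHep-/-. On HFCF they were 94.5, 71.6 and 125 in WT and 109, 106 and 156 in HuRHep-/-, so that all HFCF HuRHep-/- livers lay above all chow HuRHep-/- livers and the WT groups overlapped. *Igf1r* rose 1.66-fold in HuRHep-/- (log2 fold change 0.73, standard error 0.23, adjusted p = 0.0241). Without chow HuRHep-/- replicate 3 its adjusted p was 0.0945, and without HFCF HuRHep-/- replicate 3 it was 0.0907. In WT the log2 fold change was 0.12 (adjusted p = 0.744). With diet in HuRHep-/- 8 of 8 activated fibroblast, 9 of 10 stellate cell and 6 of 7 cholangiocyte markers also rose, against 2 of 10 of sinusoidal endothelium. Their part in the rise of *Igf1r* was not tested.

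*Igfbp1*, the carrier whose transcript insulin is known to suppress within hours, was the one member that did not pass in either diet contrast. It lies on chromosome 11 from 7197782 to 7202546 on the plus strand (ENSMUSG00000020429), 3540 bases from *Igfbp3*, which is transcribed toward it. Its normalized counts were 2413, 1319 and 2123 in chow WT and 1515, 2522 and 2942 in chow HuRHep-/-. On HFCF they were 1227, 2199 and 3125 in WT and 1127, 2059 and 3909 in HuRHep-/-. The ranges of the 4 groups overlapped, and the mean was 2184 ± 949 (SD, n = 3) in HFCF WT and 2365 ± 1420 in HFCF HuRHep-/-. The diet contrast gave 0.11 in WT (95% interval -0.87 to 1.08, adjusted p = 0.885) and -0.10 in HuRHep-/- (95% interval -1.08 to 0.87, adjusted p = 0.874), so differences of nearly 1 on the log2 scale in either direction lie within the intervals. The feeding state at collection is not given in the sources used here. Its promoter, chr11:7197537-7197836 on the plus strand of GRCm38.p6, is shown for the insulin response half-site CAAAANA, which occurs in 18.6% of all windows on either strand. Capitals mark both matches, which face each other.
Igfbp1 promoter: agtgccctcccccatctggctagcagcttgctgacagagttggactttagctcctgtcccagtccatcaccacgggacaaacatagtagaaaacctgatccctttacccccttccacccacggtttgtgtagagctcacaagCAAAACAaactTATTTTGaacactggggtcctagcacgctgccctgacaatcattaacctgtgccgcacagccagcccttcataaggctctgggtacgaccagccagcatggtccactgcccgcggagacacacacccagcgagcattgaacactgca

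The genotype contrast asked which members differed between the labels on one diet. None was a DEG in chow, beside 2.31% of 13526 genes tested, on HFCF, beside 3.67% of 14295 genes, or over both diets, beside 5.03% of 14535 genes. No member passed by the adjusted p alone (limma with Benjamini-Hochberg adjustment) in any of the 3 contrasts, beside 4.28%, 7.0% and 19.3% of all genes in either direction. At an unadjusted p under 0.05, limma gave 0 members in chow, beside 23.4% of all genes, 3 on HFCF, beside 29.6%, and 0 over both diets, beside 34.7%. With voom weights there was 1 member in chow, *Igfbp4*, beside 23.3% of all genes, 3 on HFCF, beside 30.4%, and 0 over both diets, beside 34.6%. The 3 on HFCF were *Igfbp3* (log2 fold change 0.64, adjusted p = 0.16), *Igfbp6* (1.36, adjusted p = 0.156) and *Igfbp7* (0.56, adjusted p = 0.117), all with higher estimates in HuRHep-/-. Without HFCF WT replicate 3 *Igfbp3* reached 0.92 with an adjusted p of 0.0462, and *Igfbp6* went down to 0.70 with an adjusted p of 0.151. In chow *Igfbp4* had 0.20 (95% interval -0.01 to 0.41, adjusted p = 0.233). Its chow groups did not overlap, as for 29.1% of all genes, and on HFCF those of *Igfbp6* and *Igfbp7* did not, as for 36.5%. For *Igfbp6* the nearest livers of WT and HuRHep-/- on HFCF both round to 107 normalized counts.

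The interaction asked whether the diet contrast differed between the labels. limma with Benjamini-Hochberg adjustment called 0 of the 8 members and 0.0% of 14535 genes, and with voom weights it called 0 members and 1 gene. At an unadjusted p under 0.05 there were 3 members by either fit, *Igfbp5*, *Igfbp6* and *Igfbp7*, all with the higher diet contrast in HuRHep-/-, beside 2123 genes, 14.6% of all, in either direction and 6.54% in that one. The difference between the diet contrasts of *Igfbp5* was 1.58 on the log2 scale (95% interval 0.11 to 3.04, adjusted p = 0.311) and that of *Igfbp6* 3.10 (0.21 to 5.99, adjusted p = 0.311), or 1.78 without chow HuRHep-/- replicate 3. That of *Igfbp7* was 0.59 (0.02 to 1.16, adjusted p = 0.328) and that of *Igfbp3* 0.75 (-0.05 to 1.55, adjusted p = 0.373). A member that passed under one label and not under the other is therefore not shown to differ between them.

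HuR binds AU-rich stretches of messenger RNA, and the 3′ untranslated ends of the members were searched for the pentamer AUUUA, written ATTTA in the genome. *Igfbp7* held 2 in 240 bases and *Igfbp1* 4 in 529, which is 8.33 and 7.56 per kb, beside a median of 1.20 per kb over 13382 genes. These stood at percentiles 99.1 and 98.6. *Igfbp6* held none in 209 bases, and the others held 1 (*Igfbp2*), 4 (*Igfbp3*), 4 (*Igfbp4*), 7 (*Igfbp5*) and 13 (*Igf1r*), or 1.42 to 3.21 per kb. At least 1 pentamer was present in 69.8% of the genes. The longer AU-rich nonamer ttatttatt was found in 0 of the 8 members and in 7.78% of the genes. The 30-base windows with the most pentamers are shown for the 4 members with 2 of them in 1 window, from the GENCODE annotation of GRCm38, with the pentamers in capitals. No binding was measured here, and neither *Igfbp7* nor *Igfbp1* passed the genotype test.
Igfbp1: aatATTTAagtatatagtatATTTAtactc
Igfbp4: ttgATTTATTTAcggttagagatggggatg
Igfbp5: tctATTTAttcaacttataATTTAtgttac
Igfbp7: aaaATTTAttATTTAcagaaaaaagcacat

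Among the ligands and their other partners, *Igf2* stood out. *Igf2*, a growth factor of fetal liver, had 15.7, 11.3 and 14.5 normalized counts in chow WT and 14.8, 15.8 and 9.42 in chow HuRHep-/-. On HFCF it had 18.7, 10.4 and 28.0 in WT and 129, 74.8 and 87.9 in HuRHep-/-, above every other liver. It rose 7.03-fold with diet in HuRHep-/- (log2 fold change 2.81, standard error 0.37, adjusted p = 0.000339), in 6 of 6 fits without 1 liver. It was also 5.22-fold higher in HuRHep-/- than in WT on HFCF (log2 fold change 2.38, adjusted p = 0.0238), which 2 of 6 fits without 1 liver kept (adjusted p = 0.0204 to 0.107). In that contrast the estimates of 8 of 8 activated fibroblast markers were higher (median log2 fold change 1.20), of which *Acta2* and *Tagln* passed, and so were those of 7 of 7 cholangiocyte markers (median 1.39), of which *Krt19*, *Muc1* and *Krt7* passed. Their part in the value of *Igf2* was not tested. In WT the diet contrast was 0.34 (adjusted p = 0.525), and the interaction 2.47 (adjusted p = 0.112), which passed in 1 of 12 fits without 1 liver, that without HFCF WT replicate 3 (2.80, adjusted p = 0.0492).

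*Igf1*, the main circulating ligand, fell with diet under both labels. It went from 21220, 20987 and 23693 normalized counts in chow WT to 15321, 17884 and 15022 on HFCF, by 0.45 on the log2 scale (adjusted p = 0.00865). In HuRHep-/- it went from 19306, 18833 and 23782 to 15041, 16160 and 15293 and fell by 0.41 (adjusted p = 0.00878). Both held in 6 of 6 fits without 1 liver. *Igfals*, the acid-labile subunit that joins IGF1 and its carrier in blood, fell by 0.64 in HuRHep-/- (adjusted p = 0.0128, and 0.0541 without chow HuRHep-/- replicate 3) and had -0.31 in WT (adjusted p = 0.207, and -0.53 with an adjusted p of 0.018 without HFCF WT replicate 2). Its HFCF HuRHep-/- livers, at 2290 to 2455 normalized counts, lay below all other livers. All 10 hepatocyte markers also had lower estimates on HFCF, with medians of -0.53 in WT and -0.47 in HuRHep-/-. Their part in the falls of *Igf1* and *Igfals* was not tested.

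**Figure D5:**
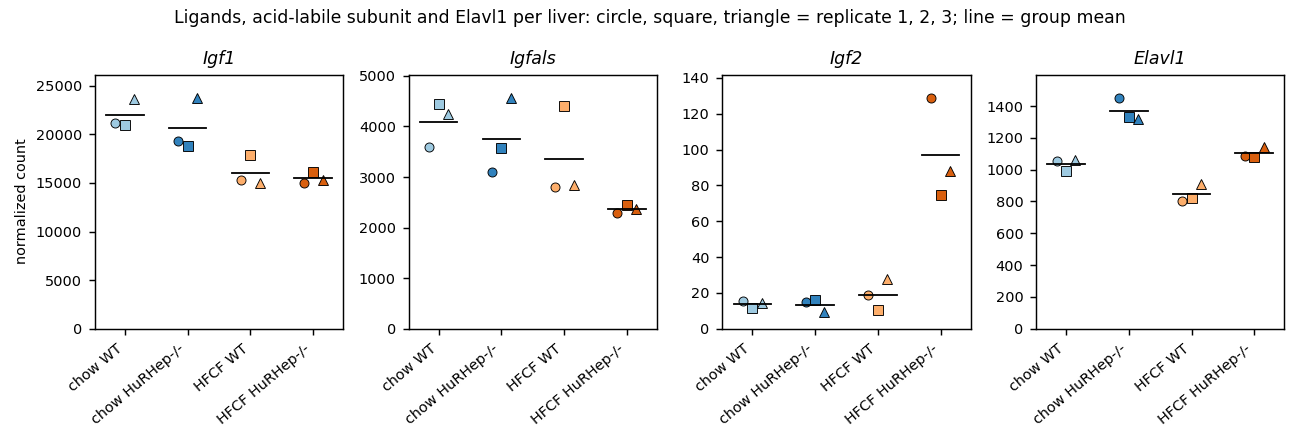
Normalized counts of *Igf1*, *Igfals*, *Igf2* and *Elavl1* in each liver, on linear axes from 0, with the replicate shown by the marker shape and the group mean by a line. *Igf2* lies between 74.8 and 129 in the HFCF HuRHep-/- livers and at most at 28.0 in the other 9, and *Igf1* lies lower in HFCF than in chow livers under both labels.

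Of 14 genes in the list of ligands, carriers and proteases, 11 were tested on 12 livers. In HuRHep-/- 5 rose with diet (*Igf2*, *Ctsd*, *Stc2*, *Mmp2* and *Htra1*) and 4 fell (*Plg*, *Adam9*, *Igf1* and *Igfals*), with a median of 0.85 beside -0.02 for all genes. These are 9 of 11, where 39.7% of all genes passed for diet in either direction by the adjusted p. *Stc2*, an inhibitor of the protease PAPP-A that cuts *Igfbp4* protein, rose 3.25-fold (adjusted p = 0.00641). *Mmp2* and *Htra1*, proteases that can cut binding proteins, rose 3.07-fold and 2.52-fold (adjusted p = 0.0131 and 0.0196). *Mmp2*, *Htra1* and *Igfals* fell outside the rule for naming genes and were named after their values had been seen. In WT *Ctsd* rose and *Igf1* and *Plg* fell, 3 of 11 where 24.4% of all genes passed, with a median of 0.19. *Pappa* and *Pappa2* did not pass the filter on low counts, and *Igfbpl1* was not analysed here over both diets.

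Beside the same shares, 2 of 11 tested receptors and adaptors passed in WT and 2 of 11 in HuRHep-/-, 0 and 2 of 7 genes of growth hormone input, 3 and 5 of 13 insulin and FOXO1 responsive genes, and 6 and 7 of 12 ATF4 targets. Among the receptors and adaptors *Insr*, the insulin receptor, fell under both labels, by 0.42 in WT (adjusted p = 0.00644) and 0.53 in HuRHep-/- (adjusted p = 0.0011). *Shc1* rose in WT and *Grb14* fell in HuRHep-/-. *Igf2r*, which clears IGF2, was 1.20-fold higher in HuRHep-/- over both diets (adjusted p = 0.00228). In the growth hormone list of 7, which feeds *Igf1* and *Igfals*, *Ghr* and *Stat5b* fell with diet in HuRHep-/- and none passed in WT. *Ghr*, the growth hormone receptor, was lower in HuRHep-/- on HFCF (log2 fold change -0.43, adjusted p = 0.0428) and over both diets (-0.34, adjusted p = 0.00716), where *Socs3* was higher.

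Of 13 insulin and FOXO1 responsive genes, which like *Igfbp1* are known to respond to insulin, *Srebf1* and *Pdk4* rose with diet under both labels. *Srebf1* rose 3.31-fold in WT and 3.11-fold in HuRHep-/- (adjusted p = 0.000684 and 0.000394). *Insr* fell under both, and *Sesn1* and *Ppargc1a* fell in HuRHep-/-. The medians were 0.00 in WT and -0.16 in HuRHep-/-, and *Trib1* was lower in HuRHep-/- over both diets. Among 12 ATF4 targets, a stress pathway also known to act on *Igfbp1*, *Fgf21* and *Atf5* rose and *Atf4*, *Asns* and *Trib3* fell under both labels. *Ddit3* fell in WT, *Vldlr* and *Sesn2* rose in HuRHep-/-, and the medians were 0.09 and 0.60. *Atf5* was higher in HuRHep-/- than in WT on HFCF (log2 fold change 0.67, adjusted p = 0.0186), and *Atf5* and *Sesn2* were higher over both diets. In chow no gene of the 5 lists passed the genotype test.

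The genes most like each member over the 12 livers were ranked by Pearson's r of log2 CPM, as a description, among genes whose normalized counts averaged 100 or more. The 12 livers share the group differences, so r is also given within groups, after each group's mean was taken off. *Igfbp6* was most like *Upk3b* (r = 0.987, within groups 0.99) and *Msln* (0.958, within groups 0.96), both on the mesothelial list above, and then *Plac9b*. *Igfbp5* was most like *Gpm6a*, also on that list (0.962, within groups 0.89), and then *Ezr* and *Slpi*. *Igfbp7* was most like *Pkm* (0.988, within groups 0.96), *Coro1a* and *Cxcl16*, and *Igfbp3* most like *Rab8b* (0.967, within groups 0.88), *Adgra2* and *Dse*. For *Igf1r* the nearest was *Pdgfra* (0.970, within groups 0.96), a receptor of fibroblasts, followed by *Tm4sf4* and *Cbx6*. *Igfbp4* came closest to *Creb3l3* (0.962, within groups 0.86), *Fam168b* and *Gpld1*, and *Igfbp2* to *Ube2r2* (0.936, within groups 0.83), *Polr2f* and *Eef1b2*. *Igfbp1* came closest to *Chd9* (0.897, within groups 0.92), *Irf2bp2* and *Slc15a4*.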

How the data were processed

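Read counts per gene were deposited by the authors in a table of 6 chow and a table of 6 HFCF libraries, without normalization. Per the study's methods the reads were aligned in CLC Genomics Workbench to GRCm38.p6 with reverse strand alignment. The deposited counts are text, with commas between digits of large numbers, and all were whole numbers once the commas were removed. Their unit was recorded as other because of the commas, and limma on log2 CPM was used in place of a count model.

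Here the counts were scaled by TMM factors and turned into log2 CPM with a pseudocount of 0.5. Genes were tested where 3 or more libraries held the equivalent of 10 counts at the median library size. They were tested in limma 3.58.1 (R 4.3.3) with a variance trend, which was tested on simulated data, with Benjamini-Hochberg adjustment over all genes tested. Genotype was fitted within each table, and diet, the interaction and genotype over both diets on the 12 libraries of genes in both tables. For a DEG the adjusted p was 0.05 or less, the fold change 1.5 or more and the counts summed over each group 10 or more.

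The genes named were the 8 members, *Elavl1*, up to 6 genes per list with an adjusted p of at most 0.05 and the 3 genes most like each member, and any other is named as chosen later. The members, lists and rule were chosen with earlier results of these data known. 5 motifs were searched in promoter windows. Other scalings, filters, a pseudocount of 2, voom weights, a replicate block, other sets of libraries in the fit, gene lengths and leaving out each library were tried. Identical counts were found in 0 pairs of libraries. The values of 1 gene in the signalling lists are not reported here.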

Additional observations from a re-analysis of the deposited data

How the results depend on the processing

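With 1 library left out at a time, the number of members that were DEGs was 3 to 5 for diet in HuRHep-/- (6 with all libraries), 1 to 3 for diet in WT (1), 0 to 1 for genotype on HFCF (0) and 0 in every such fit for genotype in chow, genotype over both diets and the interaction. *Igfbp3*, *Igfbp5* and *Igfbp7* kept their rise in HuRHep-/- in 6 of 6 such fits, whereas *Igfbp6* kept it in 2 and *Igf1r* in 4, and *Igfbp2* kept its fall there in 1. For diet in HuRHep-/- the other settings gave 5 to 7, with 7 for the adjusted p alone, where *Igfbp4* was added, and 5 where at least 10 counts were asked in every library, which left out *Igfbp6*. The settings were tried on the 8 members, *Elavl1*, *Igf1*, *Igf2*, *Igfals*, *Igf2r*, *Insr* and *Irs2*, and no value of theirs that passed turned its direction. The other genes named were not refitted. With the longest transcript in place of all exons, 7 of the shares moved by more than the spread between livers.

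Over all genes tested, the correlations of same-numbered libraries' deviations from their group means were -0.14 to 0.19, and not every pair exceeded 0.1. Single genes can still follow the replicate number. *Igfbp1* climbed from replicate 1 to 3 in chow HuRHep-/- (1515, 2522 and 2942 normalized counts). It also did so in HFCF WT (1227, 2199 and 3125) and HFCF HuRHep-/- (1127, 2059 and 3909), but not in chow WT (2413, 1319 and 2123). What same-numbered libraries may share was not tested. With the number as a replicate block there were 5 DEGs among the members for diet in HuRHep-/-, 1 for diet in WT and 0 in the other 4 comparisons. *Igfbp2* in HuRHep-/- then had an adjusted p of 0.0543 from limma.

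Depth limits *Igfbp6*, which had 3 reads in chow HuRHep-/- replicate 3, and *Igf2*, which had 9 to 26 reads in 9 of the livers. It also limits *Stc2*, which had 9, 11 and 6 reads in chow HuRHep-/- and 28, 30 and 46 in HFCF HuRHep-/-. With 3 livers per group, an interval for the interaction of *Igfbp6* ran from 0.21 to 5.99.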

Other observations

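Some cell type lists were set beside few or no members above. Cholangiocyte markers rose on HFCF in the livers labelled HuRHep-/-, where 6 of 7 tested passed limma with Benjamini-Hochberg adjustment (*Krt19*, *Muc1*, *Krt7*, *Spp1*, *Epcam* and *Sox9*, median log2 fold change 1.31), and none of 7 passed in WT (median 0.19). Their summed normalized counts were 1655 to 3186 in chow WT, 2051 to 3234 in chow HuRHep-/-, 1890 to 3511 in HFCF WT and 5066 to 8770 in HFCF HuRHep-/-. Of 7 tested lymphocyte markers 4 rose in HuRHep-/- (*Cd3e*, *Cd8a*, *Nkg7* and *Cd3g*, median 0.91) and none in WT, with sums of 190 to 243 in HFCF HuRHep-/- and at most 155 in any other liver. Both acinar markers that were tested fell in HuRHep-/- (median -1.85), and 1 of the 2 fell in WT (median -1.03). In limma with Benjamini-Hochberg adjustment the interaction called 0 of the tested markers of these lists, so a difference between the labels in their diet contrasts is not shown. Between the labels on HFCF the estimates of 7 of 7 cholangiocyte markers were higher in HuRHep-/- (median 1.39) and *Krt19*, *Muc1* and *Krt7* passed, where 2.81% of all genes were higher by the adjusted p. Over both diets *Muc1*, *Epcam* and *Spp1* passed (median 0.58), beside 8.45% of all genes, while 0 lymphocyte and 0 acinar markers passed in either.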
